A study of Mus musculus with 4 samples.

Results

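The Hox cluster genes are the 39 mouse genes named Hoxa, Hoxb, Hoxc or Hoxd with a paralog number, and all 39 had a probe on the array. They were found through the RefSeq accession printed beside each probe, which led to 43 probes on 61 spots, out of 37074 genes and transcripts measured in all. Where a gene had several probes, the brightest over the 4 arrays stood for it. The genes were chosen by name.

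Hox genes encode homeodomain transcription factors that give cells their position along the head to tail axis. They lie in 4 clusters, and within each cluster the genes with low paralog numbers, at the 3′ end, begin in the hindbrain, while those with higher numbers start successively further down the spinal cord and trunk. The forebrain and midbrain carry almost no Hox transcripts, so that in a brain sample these genes report on the hindbrain and on whatever lies behind it. Retinoic acid and Cdx factors help to open the clusters, trithorax proteins keep them active and Polycomb proteins keep them shut. Their proteins bind DNA together with cofactors of the Pbx and Meis families.

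Gene expression was measured in whole brain of the offspring of C57BL/6J mice on postnatal day 1. Pregnant mice received 25 μL of fluid into the trachea, either a vehicle without particles (Sham group) or a suspension of titanium dioxide nanoparticles at 100 μg per mouse (TiO2-H group). The protocol gives gestational day 10.5 for this treatment, while the sample titles give day 14. For each exposure and sex (Sham male and female, TiO2-H male and female), RNA of 2 offspring from each of 5 dams (Sham) or 6 dams (TiO2-H) was combined into 1 pool and hybridized to 1 array. A pool averages its litters, so that neither the spread between offspring nor that between dams was measured, and p-values within a sex could not be computed. The 4 arrays shared 1 slide, the Sham arrays in one row and the TiO2-H arrays in another, so that exposure and slide row cannot be told apart.

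Signals below are processed signals, intensities after subtraction of the local background, which carry no scaling between arrays. A spot is called well above background, or detected, by a mark of the scanner software. Between 56.2% and 61.2% of spots were well above background per array, and the 75th percentile of the signal lay between 795 and 871. Log2 differences were taken after dividing each array by that percentile. The sex labels were checked with sex-linked RNAs. Xist, the RNA of the inactive X chromosome, was detected on the Sham female array, at 276, and on the array labelled TiO2-H male, at 347, and on no other. The Y-linked Eif2s3y was bright in Sham male (3519) and on the array labelled TiO2-H female (4345), weaker in Sham female (420), and undetected on the array labelled TiO2-H male. Ddx3y, also Y-linked, had the same order, at 1418, 1783 and 142.5, and was likewise undetected on the array labelled TiO2-H male. The Sham female array thus held Xist and Y-linked RNA together, and the cause was not tested. These RNAs go against the sex labels of the TiO2-H arrays, so these arrays are named by their labels, and each comparison within a sex rests on those labels.

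The promoters of 4 members are shown, picked by their results. Hoxa2, Hoxa7 and Hoxb8 were above their Sham values on both TiO2-H arrays, with unadjusted limma p-values below 0.05. Hoxb2, lower at the same cutoff, had no window among those available. Hoxa13 stands for the far 5′ end and was itself detected on no array. Each line holds the 250 bases before the RefSeq start, read in the gene's direction from assembly GRCm38.p6, with CG dinucleotides in capitals. CG dinucleotides are the sites of DNA methylation, which was not analysed here.
Hoxa2 (chr6:52164832-52165081, minus strand): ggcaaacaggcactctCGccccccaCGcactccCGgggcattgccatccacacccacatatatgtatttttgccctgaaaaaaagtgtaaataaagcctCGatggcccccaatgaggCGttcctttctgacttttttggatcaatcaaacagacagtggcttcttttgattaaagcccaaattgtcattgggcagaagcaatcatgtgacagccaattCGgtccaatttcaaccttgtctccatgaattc
Hoxa7 (chr6:52218574-52218823, minus strand): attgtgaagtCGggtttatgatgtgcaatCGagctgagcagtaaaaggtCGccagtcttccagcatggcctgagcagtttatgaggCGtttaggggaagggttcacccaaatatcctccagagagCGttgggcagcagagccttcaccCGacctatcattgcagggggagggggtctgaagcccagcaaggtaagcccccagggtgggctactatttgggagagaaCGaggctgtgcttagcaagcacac
Hoxb8 (chr11:96281655-96281904, plus strand): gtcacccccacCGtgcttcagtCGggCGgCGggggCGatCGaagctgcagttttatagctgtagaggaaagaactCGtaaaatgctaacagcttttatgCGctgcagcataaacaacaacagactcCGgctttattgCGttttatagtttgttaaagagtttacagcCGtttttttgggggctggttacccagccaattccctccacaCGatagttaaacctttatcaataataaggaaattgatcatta
Hoxa13 (chr6:52260881-52261130, minus strand): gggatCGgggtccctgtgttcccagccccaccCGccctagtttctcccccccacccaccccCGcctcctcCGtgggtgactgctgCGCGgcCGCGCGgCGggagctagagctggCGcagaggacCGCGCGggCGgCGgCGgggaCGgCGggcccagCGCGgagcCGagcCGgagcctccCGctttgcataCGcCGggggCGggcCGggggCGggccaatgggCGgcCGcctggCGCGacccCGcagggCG

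The Hoxa13 window held 35 CG dinucleotides, a number reached by 2.97% of the 32851 mouse promoter windows of this length, whereas Hoxb8 held 12, Hoxa7 held 7 and Hoxa2 held 6. The table held 24 windows for 22 of the Hox genes, with a median of 12.5 CG dinucleotides against 6 over all promoters. The 9 windows of Hox genes detected on all 4 arrays had a median of 12 and ranged from 3 to 28, and the 11 windows of undetected Hox genes had a median of 13 and ranged from 2 to 35, so that the ranges of both sets overlapped almost wholly.

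The letters of 4 short motifs were searched on both strands. The letters TTTATNG, a form of the site bound by Cdx factors, occurred 3 times in the Hoxb8 window, at 199 to 193, 120 to 114 and 110 to 104 bases before the start, and in 9.81% of all promoter windows. The letters TATAAA were found on the opposite strand at 2 places in Hoxb8, both inside a TTTATNG match, and in 12.4% of all windows. The letters TGATNNAT, as bound by Pbx and Hox proteins together, were present 11 to 4 bases before the Hoxb8 start and 111 to 104 bases before the Hoxa2 start, and in 7.68% of all windows. A repeat of AGGTCA with 5 bases between the copies, as bound by retinoic acid receptors, was in no Hox window and in 0.00913% of all windows. None of these letters occurred in the Hoxa7 or Hoxa13 window. Over the Hox windows, 4 held the Pbx and Hox letters, 2 the Cdx letters and 4 the TATAAA letters.

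Which members were present in the newborn brain followed their paralog numbers. On all 4 arrays, 18 of the 39 Hox genes were well above background, and 15 were so on none. Paralog groups 2 to 7 held 17 genes, of which 15 were detected on all 4 arrays and the other 2, Hoxd4 and Hoxa6, on 3. Groups 8 to 13 held 19 genes, of which 2 were detected on all 4 arrays, Hoxb8 and Hoxa9. No gene of groups 10 to 13 was detected on all 4 arrays, out of 12. Over all genes on the array, 60.1% were well above background on all 4 arrays and 29.3% on none, against 46.2% and 38.5% of the Hox genes. Probes differ in how strongly they bind, so levels were not compared between genes. A gene called undetected lacked the well-above-background mark, which does not mean that it had no signal. The scanner software also gives a weaker mark, for a signal positive and significant against background. By that mark 21 Hox genes passed on all 4 arrays, among them Hoxa6, Hoxd4 and Hoxc12.

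**Figure D1:**
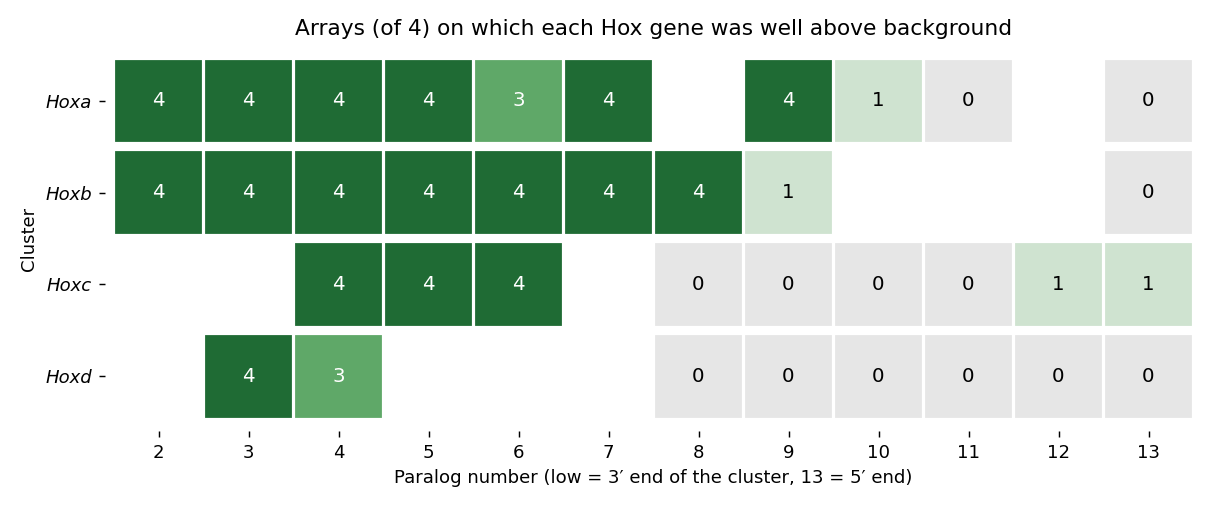
Number of arrays, out of 4, on which each of the 36 Hox genes of paralog groups 2 to 13 was well above background, with the paralog number on the horizontal axis, the cluster on the vertical axis and white where the mouse has no gene. The dark squares of 17 genes detected on all 4 arrays lie between paralog numbers 2 and 9, and the 5′ end on the right is light or grey.

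The clusters did not reach equally far. In the Hoxa cluster 7 of 11 genes were detected on all 4 arrays, the last of them Hoxa9. In the Hoxb cluster 7 of 10 were, from Hoxb2 through Hoxb8 without a gap. In the Hoxc cluster these were 3 of 9, Hoxc4, Hoxc5 and Hoxc6, and in the Hoxd cluster 1 of 9, Hoxd3. At the 3′ end, Hoxb1 and Hoxd1 were detected on no array. Hoxb1 sets the identity of a hindbrain segment that makes facial motor neurons, and its probe was spotted 10 times on each array. On 3 arrays none of the 10 spots was well above background, and on the Sham male array 1 was, with a signal of 70.7 and an outlier mark, while the median there was 7.67.

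The members detected on no array were, besides Hoxb1 and Hoxd1, Hoxc8 and Hoxd8, Hoxc9 and Hoxd9, Hoxc10 and Hoxd10, Hoxa11, Hoxc11 and Hoxd11, Hoxd12, and Hoxa13, Hoxb13 and Hoxd13. Genes of this region shape the thoracic and lumbar spinal cord, the limbs and the hindgut. Hoxc8, which acts in motor neurons of the forelimb level, came closest, with signals of 31.6, 7.43, 6.77 and 5.42 for Sham male, Sham female, labelled TiO2-H male and labelled TiO2-H female, an order kept for all lists of signals below. For comparison, the lowest signal of any spot well above background was 30.4, 31.7, 29.5 and 23.3. The 10 spots of Hoxa11 had medians from 6.07 to 8.06, and a single one, at 35.8 on the array labelled TiO2-H female with an outlier mark, was well above background. Both probes of Hoxa13 were undetected. The antisense transcript of Hoxa11, Hoxa11os, was detected on all 4 arrays through its own probe, with signals of 113, 94.5, 113 and 82.7.

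Each array by itself showed nearly the same set. Of the 39 Hox genes, 20 were detected in Sham male, 19 in Sham female, 21 on the array labelled TiO2-H male and 22 on that labelled TiO2-H female. In paralog groups 1 to 7 these were 17, 17, 18 and 18 genes, and in groups 8 to 13 they were 3, 2, 3 and 4. The share of all spots well above background was likewise highest on the array labelled TiO2-H female, at 61.2%, and its part in these counts was not tested. With any array left out, 18 or 19 Hox genes were detected on all of the other 3.

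Another 4 members were detected on 1 array only, Hoxb9, Hoxa10, Hoxc12 and Hoxc13, which is 10.3% of the Hox genes against 6.28% of all genes. Hoxa10, which patterns the lumbar region and the uterus, had a signal of 109 on the array labelled TiO2-H female and of 7.46, 7.82 and 7.12 on the others, where it was not well above background. Hoxb9, a gene of the thoracic region, had signals of 59.8, 7.68, 7.21 and 5.65, and was detected on the Sham male array. Hoxc13, known for its role in hair, had signals of 7.23, 7.58, 12.3 and 38.6, and Hoxc12 had 32.1, 24.2, 46.7 and 28.7. Each of the 4 rests on 1 spot of 1 array, with no second spot to check it, and the detecting array was a Sham array for Hoxb9 and a TiO2-H array for the other 3.

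**Figure D2:**
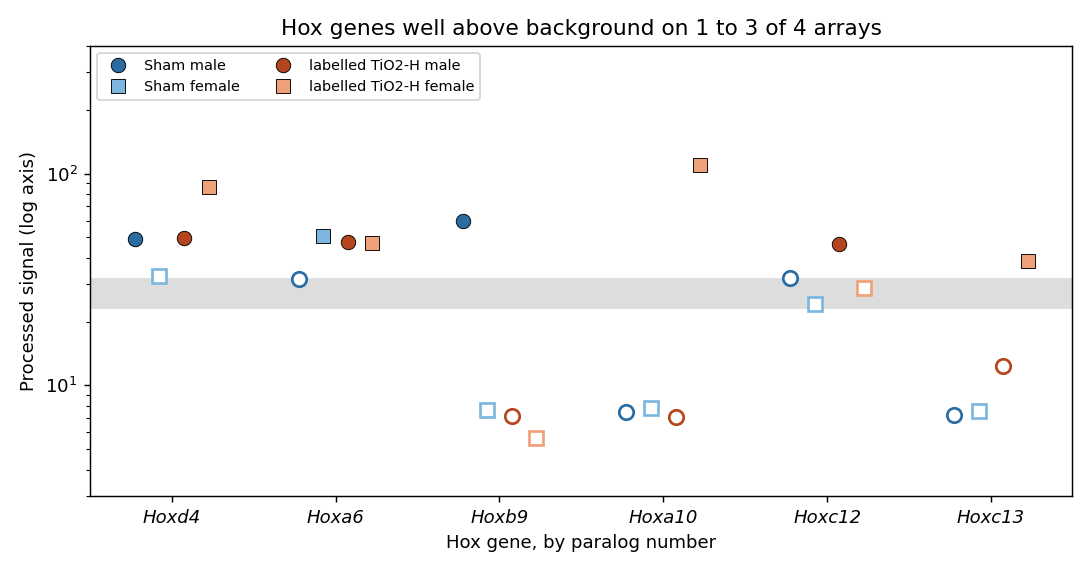
Processed signal, on a log axis, of the 6 Hox genes that were well above background on 1 to 3 of the 4 arrays, with filled symbols where the spot was well above background, open symbols where it was not, and a grey band from 23.3 to 31.7 that spans the lowest detected signal of the arrays. Hoxa10 at 109 and Hoxb9 at 59.8 stand far from their other 3 values, while Hoxa6 and Hoxc12 stay at or below 50.8 on every array and Hoxd4 reaches 86.2 on the array labelled TiO2-H female.

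Within a sex, the fold change of TiO2-H over Sham was read against the thresholds of the study, at least 1.5-fold or at most 0.67-fold, with no test. A dim value below the lowest detected signal of its array was raised to that signal. On the arrays labelled male, 1 of 22 Hox genes compared was at least 1.5-fold higher, Hoxb8, against a background of 3.63% of 24759 genes. At most 0.67-fold was 1 of 22, Hoxb9, against 2.91%. On the arrays labelled female, 2 of 22 were at least 1.5-fold higher, Hoxa10 and Hoxd4, against 2.37% of 25234 genes, and 1 of 22 was at most 0.67-fold, Hoxd3, against 2.86%. With counts of 1 or 2 genes, these shares do not set the Hox genes apart from the rest of the array.

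Most of those calls rest on a dim spot. Hoxb9 was at least 2.17-fold lower and Hoxa10 at least 3.15-fold higher, each against an array where it was not well above background. Hoxd4, a gene whose expression begins in the caudal hindbrain, had signals of 49.1, 32.8, 49.5 and 86.2, and its Sham female spot was not well above background. Its 2.40-fold difference is the ratio of both signals after scaling, with neither of them raised, and no strict bound. Among genes well above background on both arrays, the calls were 1 of 19 on the arrays labelled male, Hoxb8 above 1.5-fold (1.73% of 22722 genes), and 1 of 19 on the arrays labelled female, Hoxd3 below 0.67-fold (1.45% of 22642). None of 19 was called in the opposite direction in either pair, where 1.19% and 1.11% of all genes were.

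Arrays of the same exposure differed at the same thresholds about as often. Between Sham female and Sham male, 2 of 21 Hox genes were at least 1.5-fold higher in female, Hoxa6 and Hoxd3 (2.8% of all genes), and 1 was at most 0.67-fold, Hoxb9 (2.83%). Between the arrays labelled TiO2-H female and TiO2-H male, 2 of 23 were higher, Hoxa10 and Hoxd4 (1.88%), and 1 was lower, Hoxc12 (3.62%). Of the 5 members called between exposures, Hoxb8 was the one not called within an exposure. Hoxa6, a gene of the cervical level, had signals of 31.9, 50.8, 47.4 and 46.9, with the Sham male spot not well above background.

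Among the members detected on all 4 arrays, Hoxb8 had the largest difference between the mean of both TiO2-H arrays and that of both Sham arrays, while in the pair labelled female Hoxd3, given below, differed more. Hoxb8 is expressed in the spinal cord and in progenitors of a lineage of microglia, and mice without it groom excessively. Its signals were 142, 188, 294 and 304, so that both TiO2-H arrays lay above both Sham arrays. TiO2-H exceeded Sham 1.93-fold in the pair labelled male and 1.48-fold in the pair labelled female. As log2 differences these were 0.95 and 0.56, with errors of 0.22 and 0.21. Each error combines those that the scanner software gives for the spots of both arrays. The Sham arrays differed from each other by 0.43 and the TiO2-H arrays by 0.05 on the log2 scale. Paired across the sex labels, as the sex-linked RNAs would place the arrays, Hoxb8, Hoxa10 and Hoxd4 passed 1.5-fold and Hoxb9 passed 0.67-fold between Sham male and the array labelled TiO2-H female, 4 of 23 Hox genes, against 2.89% and 3.16% of all genes in those directions. Between Sham female and the array labelled TiO2-H male, Hoxa7 passed 1.5-fold and Hoxd3 passed 0.67-fold, 2 of 21, against 3.11% and 2.53%.

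Hoxd3, which acts in the hindbrain and the upper cervical vertebrae, was set apart by 1 array. Its signals were 84.4, 234, 95.7 and 95.4, and the Sham female array was 2-fold or more above the next one, as for 0.996% of genes detected on all 4 arrays. The log2 difference of TiO2-H and Sham was 0.08 for the arrays labelled male and −1.43 for those labelled female, where the fold change was 0.372. Sham female was 2.83-fold above Sham male after scaling, a larger ratio than that of either exposure pair. Without the Sham female array the difference of TiO2-H and Sham came to 0.08, so that the call rests on that array.

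Both TiO2-H arrays against both Sham arrays was the comparison that did not need the sex labels. Among the 18 Hox genes detected on all 4 arrays, 7 had both TiO2-H values above both Sham values (28.7% of 22293 genes) and 3 had both below (26.6%). The 7 were Hoxa2, Hoxa7, Hoxb6, Hoxb7, Hoxb8, Hoxc5 and Hoxc6, and Hoxb2 and Hoxb5 were among the 3. In either direction this was 10 of 18 Hox genes against 55.3% of all genes, a share near the background. Without the Sham male array the counts were 11 and 6 of 19, against 40.7% and 36.1% of all genes. Without scaling between arrays the split was 12 and 1, against 61.0% and 4.85% of all genes. With 2 arrays per exposure, the smallest two-sided p that an exact permutation test allows is 0.33.

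With limma and Benjamini-Hochberg adjustment over 23880 genes, no Hox gene of 20 tested, and no gene at all, had an adjusted p below 0.05 (0.0% of genes). The lowest adjusted p was 0.253 for a Hox gene, that of Hoxb8, and 0.0779 for any gene. At an unadjusted p below 0.05 stood 4 of the 20, Hoxa2, Hoxa7 and Hoxb8 as higher (11.0% of all genes) and Hoxb2 as lower (6.11%), against 17.1% of all genes in either direction. The p-values measure the spread between the 2 arrays of an exposure, which carry different sex labels, and both are pools.

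**Figure D3:**
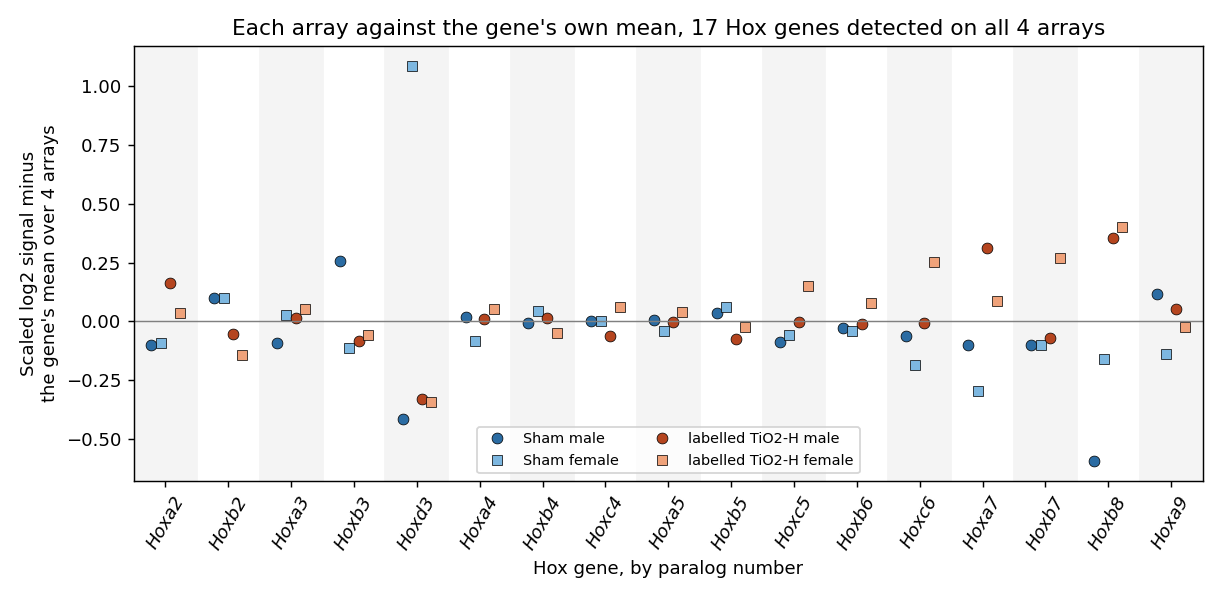
Scaled log2 signal of each array minus the gene's mean over the 4 arrays, for the 17 Hox genes of paralog groups 2 to 9 detected on all 4, with the genes ordered by paralog number and 1 symbol per array. The single Sham female value of Hoxd3 stands highest at 1.09, and both TiO2-H values of Hoxa7 and Hoxb8 lie above both of their Sham values.

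The members of the hindbrain end, paralog groups 2 and 3, did not share a direction. Hoxa2, which patterns the anterior hindbrain and the second pharyngeal arch, had signals of 178, 176, 229 and 210, with both TiO2-H arrays above both Sham arrays. Its log2 difference between the exposures was 0.20 (SE 0.061), with limma p 0.0397 and adjusted p 0.277. Hoxb2, its paralog, which acts in facial motor neurons, had signals of 389, 382, 373 and 353, and its scaled difference was −0.20 (SE 0.050), with limma p 0.0212 and adjusted p 0.256. These paralogs lay on opposite sides of 0. Without scaling between arrays the differences were 0.31 for Hoxa2 and −0.086 for Hoxb2.

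Hoxa3, needed for the thymus and parathyroid and for cranial nerves of the caudal hindbrain, had signals of 618, 657, 711 and 733, and its scaled values overlapped between the exposures. Hoxb3 had 343, 261, 290 and 296, where the Sham male value was the highest of the 4. A second probe of Hoxb3 was nearly level, at 254, 233, 254 and 261, and its log2 difference on the arrays labelled male was −0.10 instead of −0.34.

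The group 4 and 5 genes begin in the caudal hindbrain. Hoxd4, described above, had a log2 difference of 0.59 (SE 0.37, limma p 0.194) with its dim Sham female value as it was read, and the 6 genes of these groups detected on all 4 arrays differed by between −0.10 and 0.14. Hoxc4 had the smallest difference of any member detected on all 4 arrays, with signals of 1549, 1520, 1587 and 1732 and a log2 difference of −0.00 (SE 0.059). Hoxb4, at 375, 382, 407 and 391, and Hoxa4, at 116, 106, 124 and 128, both overlapped between the exposures. Hoxa5, which is needed for breathing circuits and lung, had 611, 580, 648 and 670 and overlapped as well. Hoxb5 had 1799, 1799, 1784 and 1854, with a scaled difference of −0.10 (SE 0.043) and a limma p of 0.0945. Hoxc5 had 180, 180, 204 and 228, with a difference of 0.14 (SE 0.070) and both TiO2-H arrays above the Sham arrays.

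Of the 12 genes of groups 6 to 9, which act from the cervical cord downwards, the 6 detected on all 4 arrays had positive mean differences, while Hoxb9, described above, was lower in the pair labelled male. Hoxa7, a gene of the cervical and upper thoracic region, had signals of 117, 100, 166 and 143, so that both TiO2-H arrays stood above both Sham arrays. It was 1.33-fold and 1.30-fold higher in the pairs labelled male and female, below the threshold of 1.5 in both, and its log2 difference was 0.40 (SE 0.12) with limma p 0.034 and adjusted p 0.27. Hoxc6, which acts in motor neurons of the forelimb level, had 99.1, 89.5, 110 and 133, a difference of 0.25 (SE 0.11) and a limma p of 0.106.

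Hoxb7 had signals of 373, 366, 407 and 517, a difference of 0.20 (SE 0.13) and a limma p of 0.224, and the array labelled TiO2-H female stood highest of the 4. Without that array the difference was 0.027. Hoxb6 had 610, 594, 662 and 706, with a difference of 0.07 (SE 0.050). Hoxa9, the member furthest to the 5′ side that every array detected, had 56.5, 46.5, 57.9 and 55.1, with a difference of 0.03 (SE 0.11), and its values overlapped. A second probe of Hoxa9 was well above background on no array, and with the mean of both probes in its place the difference was 0.497, with limma p 0.026 and adjusted p 0.288. For Hoxb8 the difference was 0.755 (SE 0.17), which is 1.69-fold, with limma p 0.0146.

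Over groups 6 to 9 the median log2 difference was 0.22 and all 6 genes lay above 0, and over groups 1 to 5 the median was −0.02 and 5 of 12 lay above 0. Without the array labelled TiO2-H female the median of groups 6 to 9 was 0.0906, without the array labelled TiO2-H male 0.326, and without either Sham array 0.253 (male) and 0.193 (female). Hoxa9 lay below 0 without Sham female, at −0.102, and without TiO2-H male, at −0.012. This division at group 6 was chosen after the values were seen and was given no test. Neighbouring genes of a cluster share regulatory DNA, and so are not independent of each other. Over all 18 genes the median was 0.05, and 11 of 18 lay above 0, against 50.9% and a median of 0.00 over all genes. On the arrays labelled male the median over 22 Hox genes was 0.02 (0.01 over all genes), and on the arrays labelled female 0.12 (0.00 over all genes). The array labelled TiO2-H female held the highest value of 9 of the 18 Hox genes, and of 26.1% of all genes.

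**Figure D4:**
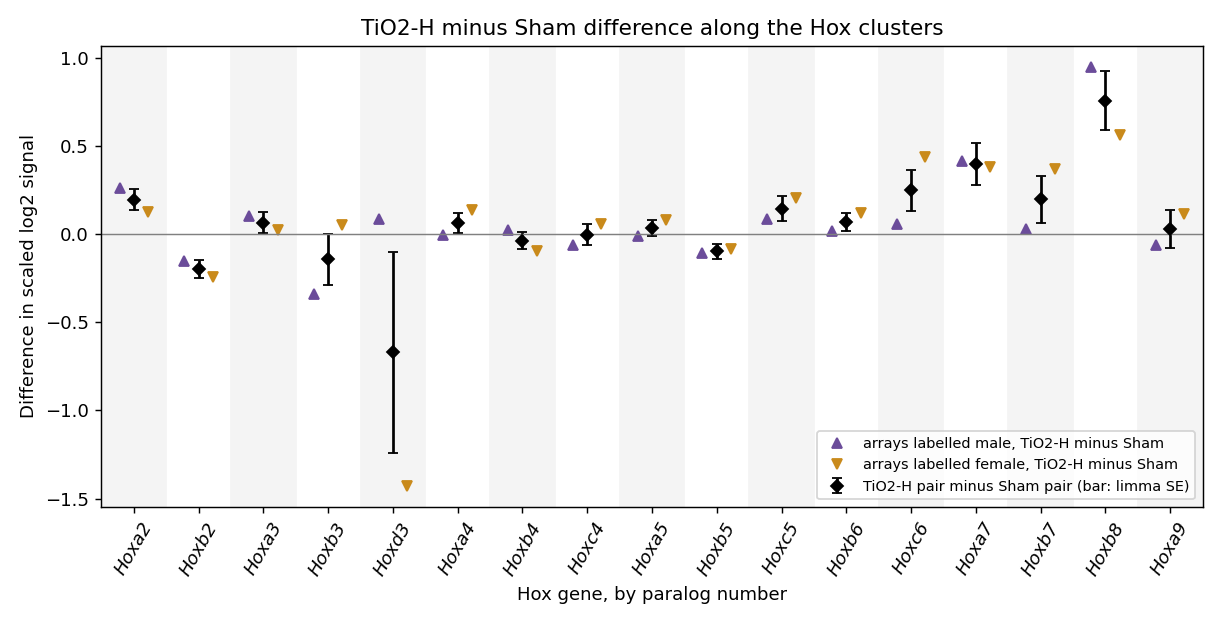
Difference in scaled log2 signal, TiO2-H minus Sham, of the 17 Hox genes of paralog groups 2 to 9 detected on all 4 arrays, ordered by paralog number; diamonds are the mean of both TiO2-H arrays minus the mean of both Sham arrays with the limma standard error, and triangles are the 2 pairs of arrays by labelled sex. Hoxb8 reaches 0.755 and Hoxd3 −0.67 with the widest error of 0.57, and the diamonds of the 6 genes from Hoxb6 to Hoxa9 lie above 0, while the triangle of the pair labelled male lies below 0 for Hoxa9.

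For a scale of these differences, the robust SD over all genes detected on all 4 arrays was 0.0975 between the Sham arrays, 0.0921 between the TiO2-H arrays and 0.13 between the exposures. Genes in the signal range of the Hox genes spread more, with 0.128, 0.129 and 0.156. The Hoxb8 difference of 0.755 and the Hoxa7 difference of 0.40 were beyond that spread, as were those of Hoxd3, Hoxc6, Hoxb2, Hoxb7 and Hoxa2, while those of the other 11 members were within it. That is 7 of 18 members beyond the spread, against 33.7% of genes in the same signal range. In a pool of whole brain, fewer cells that express a gene and less RNA of it per cell cannot be told apart.

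The partners and regulators of the Hox proteins were looked at through lists of textbook genes. All 9 cofactors, of the Pbx, Meis and Pknox families, were detected on all 4 arrays and none passed a fold threshold. The largest differences among them were those of Meis2, at 0.11 with limma p 0.0681, and Meis1, at 0.09. Their median was 0.02. Of 9 activators of the clusters, Cdx1, Cdx2 and Cdx4 were detected on no array. Gbx2, which marks the anterior hindbrain border, had signals of 658, 694, 578 and 616, a difference of −0.29 (SE 0.064) and a limma p of 0.0134. Fgf3, a signal of the early hindbrain, was detected on the array labelled TiO2-H female alone, at 65.2, which is at least 1.88-fold higher than Sham female. Egr2, a factor of hindbrain segments, differed by 0.10.

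Of 16 genes of the retinoic acid route, 14 were detected on all 4 arrays, none passed a fold threshold and the median difference was −0.01. Cyp26b1, which breaks down retinoic acid, had signals of 4426, 4944, 5809 and 5684 and a difference of 0.18 with limma p 0.0972. Crabp1, a retinoic acid binding protein, differed by −0.16 with limma p 0.0467. Of 20 Polycomb genes 19 were detected on all 4 arrays, none passed a fold threshold and the median was −0.01. Within that list Cbx8, a chromodomain subunit, differed by −0.25 (SE 0.043, limma p 0.00643) and Suz12, a subunit of the methylating complex, by 0.19 (SE 0.044, limma p 0.0164), in opposite directions. All 10 trithorax genes with a probe were detected, with a median of −0.01, and their largest differences were −0.19 for Rbbp5, with limma p 0.0252, and −0.14 for Men1. No gene of these lists had an adjusted p below 0.05 with limma.

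Of 20 genes and transcripts that flank or lie in the clusters, 8 had a named probe. Evx1, next to the 5′ end of the Hoxa cluster, was detected on all 4 arrays at 216, 180, 192 and 210, while Evx2, next to Hoxd13, was detected on none. Lnpk, beside the Hoxd cluster, had signals of 172, 260, 164 and 187, highest on the Sham female array as Hoxd3 was, and was 0.658-fold on the arrays labelled female and 0.887-fold on those labelled male. The list's median difference was 0.06 over 7 genes. All 13 measured genes of a list of downstream targets were detected and none passed a fold threshold. Of these, 12 had a positive difference, 10 had both TiO2-H values above both Sham values, where 28.7% of all genes had, and the median was 0.11. Foxp2 differed by 0.20 (SE 0.047, limma p 0.0163) and Sema3c by 0.19 (SE 0.059, limma p 0.0401), and many genes of this list are also active in brain regions without Hox transcripts.

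Marker genes were read to see which tissue the pools held. All 9 forebrain markers were detected on all 4 arrays, as were 6 of 8 of midbrain and isthmus and 11 of 13 of hindbrain and cerebellum, so that the pools held forebrain, midbrain and hindbrain, as the label whole brain says. Summed in units of each array's 75th percentile, the hindbrain markers came to 7.43 and 7.46 on the Sham arrays and 6.83 and 6.80 on the TiO2-H arrays, with a median log2 difference of −0.07. The differences ran from −0.23 for Phox2a to 0.26 for Fev, and 4 of 11 were positive. Barhl1, a cerebellar granule cell gene that makes up a large part of the sum, had signals of 2763, 2731, 2560 and 2552. Ptf1a was 0.631-fold on the arrays labelled female and 1.22-fold on those labelled male.

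Of 8 markers of spinal cord and motor neurons, 7 were detected on all 4 arrays, and their median difference was 0.06. Motor neurons also lie in the hindbrain, so detection of these markers cannot tell spinal cord from brain in the pools. Mnx1, which was also listed, had no named probe. Lhx3 differed by 0.19 (SE 0.069, limma p 0.0609) and Slc5a7 by 0.15. Isl2, a motor neuron gene, had signals of 707, 25.0, 33.7 and 28.9, so that the Sham male array stood alone, and Hoxb9 was detected on that same array. The sum of this list was 4.66 and 3.76 on the Sham arrays and 3.84 and 3.88 on the TiO2-H arrays. Over the 7 markers detected on all 4 arrays, which leave out Isl2, the sum was 3.78 and 3.73 on the Sham arrays and 3.81 and 3.85 on the TiO2-H arrays, 6 of the 7 had a positive difference (50.9% of all genes) and 2 had both TiO2-H arrays above both Sham arrays (28.7% of all genes). The part of the amount of caudal tissue in the Hox values was not tested.

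Other tissues left traces that also differed between arrays. Of sensory ganglion markers 5 of 7 were detected on all 4 arrays, and Runx3 was 0.48-fold and 0.531-fold on the arrays labelled male and female. Skeletal muscle gave 5 of 7, cartilage and bone 3 of 5, skin 4 of 5 and meninges 7 of 7, with median differences between −0.15 and 0.10. The pituitary gene Gh, for growth hormone, was detected on the array labelled TiO2-H male alone, at 301. The blood markers Hba-a1, Hbb-bt and Alas2 were lower on both TiO2-H arrays, with a median of −0.25. The part of these tissues in the Hox values was not tested.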

How the data were processed

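Whole-brain RNA of offspring mice was measured on 4 one-color Agilent arrays, 1 pool per group. The authors deposited the scanner output, whose processed signal is an intensity made by Agilent Feature Extraction 10.10.1.1 (local background subtracted, spatial trends removed, dim spots replaced by small positive values), and a table that held the same intensity for all 59305 non-control spots within 0.001%. Marks for spots well above background and for outliers, also deposited, were used as given.

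Outlier spots were left out and the spots of a probe averaged as log2. Log2 processed signal minus the log2 of the array's 75th percentile was compared. A table of RefSeq genes gave the gene names, for 21451 of 21887 curated accessions (98%), and promoter windows came from RefSeq GRCm38.p6. No other position is given, since the array was annotated on an earlier build. Genes well above background on at least 1 of 2 arrays entered a fold change, and on at least 2 of 4 the test, limma 3.58.1 (R 4.3.3) without covariates, adjusted by Benjamini-Hochberg. The remaining computation was done in Python 3.11.15 (numpy 2.4.6, pandas 2.3.3). On simulated data for this comparison, with 200 of 23880 genes changed 3-fold, limma recovered 100% and called 0.0718% of unchanged genes. The simulated noise depended on mean signal alone, with none particular to a gene or an array. This recovery therefore does not measure the power of the test on the real arrays. There Runx3, for example, differed by −0.99 (SE 0.099) with limma p 0.00107 and adjusted p 0.252. Precision is limited by the number of arrays.

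The study's files held no mean signal, so the alternative background correction by normexp (offset 50) used median signals. Every Hox gene but 1, which is not reported here singly, is named, with values per array for those past a threshold or detected on all 4 arrays; of other lists the members past a threshold on both arrays of a pair, or otherwise the largest 2 differences, are named, and a few single markers were named after their values were seen. The members, lists and tests were chosen with earlier results of these data known. Alternatives were no scaling, quantile normalization, normexp, the deposited table, other handling of probes, outliers, floor and filter, a 2-fold threshold, pairing across the sex labels, and leaving out each array in turn.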

Additional observations from a re-analysis of the deposited data

Results flagged for a closer look

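Hoxd3 and Hoxd4, neighbours in the Hoxd cluster, differed in opposite ways between the pairs of arrays by labelled sex. For Hoxd3 the log2 difference of TiO2-H and Sham was 0.08 for the arrays labelled male and −1.43 for those labelled female. For Hoxd4 it was −0.09 and 1.26, where the Sham female spot was not well above background. With 1 array per group, neither difference between the pairs was tested. In Hoxd3 the Sham female signal of 234 stood apart from the other 3, which lay between 84.4 and 95.7. In Hoxd4 the signals were 49.1, 32.8, 49.5 and 86.2, so that the Sham female array was lowest and the array labelled TiO2-H female highest.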

How the results depend on the processing

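Each gene rests on 1 array per group and mostly on 1 spot. Dim genes, such as those near the lowest detected signal, carry the widest error given by the scanner software. The widest limma SE among members detected on all 4 arrays was instead that of Hoxd3, at 0.57. No Hox gene passed limma in any of 16 alternatives. With labelled sex as a paired term 3 Hox genes had an unadjusted p below 0.05 (lowest adjusted p 0.369), and with the TiO2-H labels crossed 4 had (0.413). The count of Hox genes detected on all 4 arrays stayed between 18 and 21. On the arrays labelled male 2 Hox genes passed a fold threshold, 1 where both arrays had to detect the gene, 1 at 2-fold, 4 across the sex labels and 3, with Hoxa9, for the mean over probes. On the arrays labelled female 3 did, 1 where both arrays had to detect the gene, 2 with normexp (without Hoxd4), 4 without scaling and in the deposited table (with Hoxb8) and 4 without a floor (with Hoxc13). Of the regulator lists 2 genes did, and 1 where both arrays had to detect the gene. With 1 array left out, a check added after the data were seen, 11 to 17 Hox genes did not overlap between the exposures instead of 10, since values of 3 arrays overlap less often by construction: 17 of 19 without Sham male (76.8% of all genes), 14 of 19 without Sham female (78.3%), 15 of 18 without TiO2-H male (78.4%) and 11 of 18 without TiO2-H female (76.7%).

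No scaling and the deposited table moved the median of all genes to 0.106 for male and 0.133 for female labels. The median of the Hox genes moved to 0.118, 0.248 and 0.163 for male, female and both together. Normexp gave −0.026 for male, detection on both arrays 0.078 for female, no filter on dim probes −0.144, −0.245 and −0.037, and pairing across the sex labels 0.107 and 0.031. The difference of Hoxb8 ranged from 0.539 to 0.971 and kept its sign in all alternatives, as did that of 9 other members. Without scaling and in the deposited table, the sign turned for Hoxb4 (0.077), Hoxc4 (0.111) and Hoxb5 (0.016). With normexp it turned for Hoxa4 (−0.042) and Hoxa9 (−0.123), and with quantile normalization for Hoxa9 (−0.028). With 1 array left out, Hoxb3 ranged from −0.326 to 0.040 (without Sham male), Hoxd3 from −1.422 to 0.079 (without Sham female), Hoxc4 from −0.064 to 0.057 (without TiO2-H male) and Hoxa9 from −0.102 (without Sham female; −0.012 without TiO2-H male) to 0.154. The cause of these turns was not tested.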
